A study of Mus musculus with 56 samples.

Results

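The aquaporins described here were Aqp1, Aqp2, Aqp3, Aqp4, Aqp5, Aqp7, Aqp8, Aqp9 and Aqp11, 9 of the 53379 genes in the count table. They were chosen by name, with earlier results of these data known, and each had at least 10 counts over the whole table. RNA-seq libraries had been made from 7 regions of the reproductive tract of C57BL/6 male mice, namely the testis, the vas deferens, the efferent ductules between testis and epididymis, and 4 parts of the epididymis (its initial segment, caput, corpus and cauda). Each region was sampled at 3 months and at 21 months of age with 4 libraries per age, 56 libraries in all. The labels name no transgene, deletion or treatment, and region and age are the only differences between groups that they give. The methods name Sun Yat-sen University and Xiamen University as sources of the mice, without saying which ages came from which. According to the methods, the regions of an age came from the same 4 mice, the tissue of both body sides was dissected after fat and excess connective tissue had been trimmed away, and the 2 ages were different mice. In such bulk tissue, fewer cells of a type and less RNA per cell cannot be told apart.

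Aquaporins are membrane channels that let water cross cell membranes along osmotic gradients. Aqp1, Aqp2, Aqp4, Aqp5 and Aqp8 belong to the classical water channels, Aqp3, Aqp7 and Aqp9 are aquaglyceroporins that also pass glycerol and other small solutes, and Aqp11 is an unorthodox member found in intracellular membranes. In the male tract, Sertoli cells secrete the fluid that carries sperm out of the testis, the efferent ductules take back most of this fluid, and the epididymis concentrates the sperm further before they reach the vas deferens.

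The promoters of 4 members are shown first, namely Aqp1, with its highest level in the efferent ductules, Aqp2, with its highest in the vas deferens, and Aqp7 and Aqp8, with theirs in the testis. Each line gives the 250 bases before the outermost listed RefSeq transcription start of the gene on GRCm38.p6, 5′ to 3′ on the strand of the gene, with matches to the searched motifs in capitals. The windows lie at chr6:55336049-55336298 on the plus strand for Aqp1, chr15:99578806-99579055 on the plus strand for Aqp2, chr4:41048137-41048386 on the minus strand for Aqp7 and chr7:123462044-123462293 on the plus strand for Aqp8.
Aqp1: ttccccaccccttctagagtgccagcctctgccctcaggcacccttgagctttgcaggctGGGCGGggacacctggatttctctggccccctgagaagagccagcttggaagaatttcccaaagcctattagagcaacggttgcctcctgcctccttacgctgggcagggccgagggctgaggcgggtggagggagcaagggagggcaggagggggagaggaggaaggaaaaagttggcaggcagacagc
Aqp2: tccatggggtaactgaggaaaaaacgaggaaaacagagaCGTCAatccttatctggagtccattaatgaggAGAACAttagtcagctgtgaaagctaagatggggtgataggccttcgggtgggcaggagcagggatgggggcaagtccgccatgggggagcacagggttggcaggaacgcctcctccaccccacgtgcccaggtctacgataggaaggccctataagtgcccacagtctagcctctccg
Aqp7: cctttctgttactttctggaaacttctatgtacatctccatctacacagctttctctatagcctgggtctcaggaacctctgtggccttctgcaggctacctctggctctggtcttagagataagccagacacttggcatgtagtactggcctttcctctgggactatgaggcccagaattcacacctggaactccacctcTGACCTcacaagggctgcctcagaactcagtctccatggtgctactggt
Aqp8: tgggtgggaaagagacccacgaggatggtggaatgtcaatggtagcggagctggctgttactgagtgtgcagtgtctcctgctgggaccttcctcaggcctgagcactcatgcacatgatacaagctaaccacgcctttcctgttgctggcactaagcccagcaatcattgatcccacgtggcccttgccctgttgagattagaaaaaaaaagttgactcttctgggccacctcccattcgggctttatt

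Both strands were searched for CGTCA (the core of the cyclic AMP response element), AGGTCA (the core hexamer of nuclear receptor sites), AGAACA (the half-site hexamer shared by several steroid receptors), TATAAA (the TATA box), GGGCGG (the GC box) and CCAAT (the CCAAT box), and no matches overlapped. The Aqp1 window had GGGCGG at position -190 from its RefSeq start and 62.0% GC, against a median of 52.4% over the 32851 windows of the same length in the table. It ended at 55336298, before the GENCODE start of the gene at 55336432, and the bases between were not searched. GGGCGG was present in 32.7% of all windows. The Aqp2 window had 55.6% GC, with CGTCA at position -211 and AGAACA at -179, which were present in 17.8% and 16.1% of all windows. The Aqp7 window had 50.8% GC and carried AGGTCA on the opposite strand (printed as TGACCT) at position -49 from the outermost of its starts, a motif present in 14.02% of all windows. The Aqp8 window had 52.4% GC and none of the searched letters, of which TATAAA and CCAAT were present in 12.4% and 33.8% of all windows. These matches describe the sequence and are not evidence of binding.

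In GENCODE M21 on GRCm38, Aqp1 (ENSMUSG00000004655) lies on chromosome 6 from 55336432 to 55348555. Aqp2 (ENSMUSG00000023013) lies on chromosome 15 from 99579055 to 99584547, and Aqp5 (ENSMUSG00000044217) follows it on the same strand from 99590782 to 99594829, with 6.2 kb between them. Aqp7 (ENSMUSG00000028427, chromosome 4, 41033074 to 41048139) and Aqp3 (ENSMUSG00000028435, chromosome 4, 41092722 to 41098183) are both on the minus strand and 44.6 kb apart. Aqp8 (ENSMUSG00000030762, 123462291 to 123468004) and Aqp11 (ENSMUSG00000042797, 97724006 to 97738289) share chromosome 7 at a distance of 25724.0 kb, and Aqp9 (ENSMUSG00000032204) occupies 71110659 to 71168682 on chromosome 9. No annotated exon of another gene overlaps an exon of these members.

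The libraries had 11125279 to 20561967 counts on genes, with a median of 16384049. The labelled region was the one with the highest mean in 40 of 40 checks of 20 regional marker genes, one check per gene and age. Several of these genes were named by the study from these same libraries, so their checks are not independent of the labels. Gm42418 accounted for 49.7% of all counts in the second 3-month caput library, against a median of 8.09% over the libraries. In the third 3-month cauda library the summed level of 9 macrophage markers was 3784 CPM, against 484 to 515 CPM in the other 3. In the third 3-month efferent ductule library the summed level of 10 haploid germ cell markers was 228 CPM against 46.8 to 51.3 CPM. In the fourth 21-month vas deferens library the summed level of 7 seminal vesicle markers was 22.5 CPM against 489 to 1930 CPM. Levels are given as CPM, counts scaled to a common library size, after TMM scaling over all 56 libraries, or per kilobase of exon (RPKM) where genes are compared with each other, as mean ± SD of 4 libraries. The exon length is that of all annotated exons of a gene merged, whichever transcript is present, and comparisons between genes depend on it. Fold changes and adjusted p-values come from edgeR's quasi-likelihood test, whose scaling was set within each fit, and SE is the standard error of the log2 difference.

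The mix of aquaporin RNA changed from region to region. As a share of the summed RPKM of the 9 genes in the 3-month-old mice, the testis held mainly Aqp7 (39.5%), Aqp11 (32.4%) and Aqp9 (16.8%), while in the efferent ductules Aqp1 made up 88.0% ± 0.938 (SD, n = 4). The initial segment was divided between Aqp1 (48.9%) and Aqp9 (46.6%). From the caput onwards Aqp9 had the highest share, at 69.5% (caput), 80.1% (corpus), 72.3% (cauda) and 44.5% (vas deferens). In the vas deferens Aqp2 made up 15.5% ± 3.92, against at most 2.75% in any other region and age, and Aqp1 38.5% ± 3.77. The gene with the highest share was the same at 21 months in 6 of the 7 regions, and in the initial segment Aqp9 (51.1% ± 9.33) then stood above Aqp1 (43.0% ± 9.11), with overlapping libraries. In the vas deferens at 21 months Aqp9 had 31.1% to 67.4% and Aqp2 3.60% to 38.7%, so that these shares overlapped too. The summed level of the 9 genes per length was highest in the efferent ductules at both ages, 240.3 ± 20 RPKM and 274 ± 10.9 RPKM, and lowest in the caput, 25.1 ± 4.74 RPKM and 31.6 ± 1.09 RPKM.

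**Figure D1:**
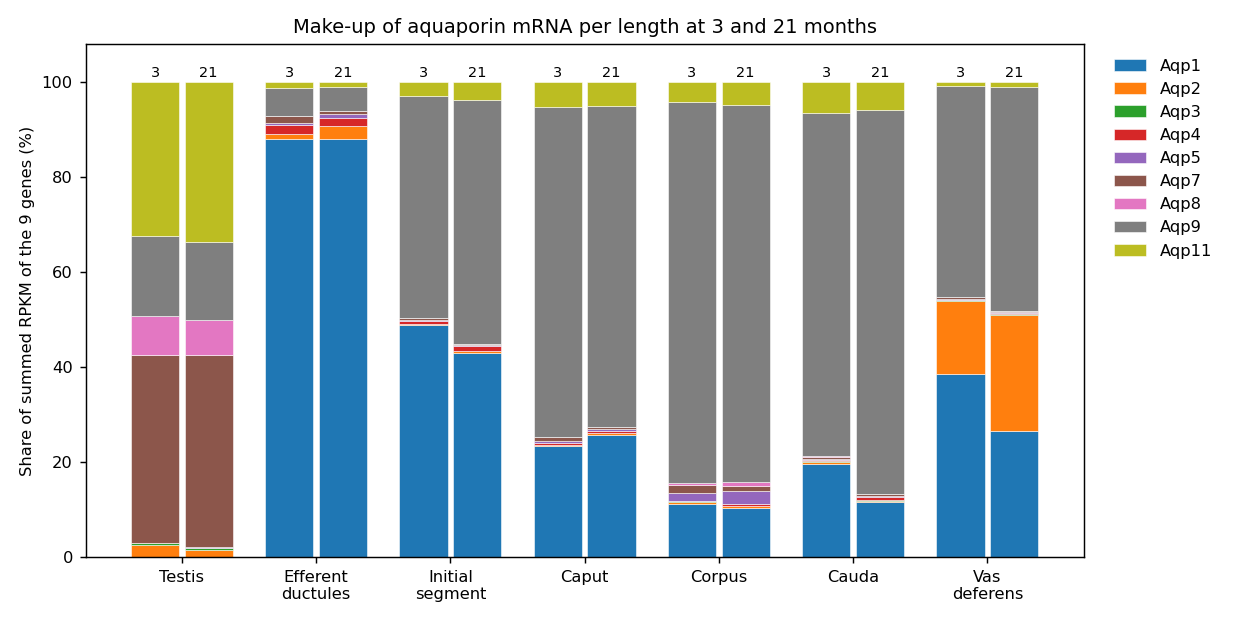
Share of each aquaporin in the summed RPKM (CPM per kilobase of exon) of the 9 genes, in percent on the vertical axis, as stacked bars of the mean of 4 libraries for each region at 3 and 21 months. Aqp1 fills 88.0% of the bar of the efferent ductules at 3 months, Aqp7 and Aqp11 most of the bar of the testis, and Aqp9 the largest piece from the caput to the vas deferens.

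The first question was which region each aquaporin marked. In the 3-month-old mice, a gene was called specific to a region when its adjusted p was under 0.05 and its mean level reached 4 times that of the other 6 regions together. By this rule 8 of the 9 aquaporins were called in 1 region each. The testis had 4 of them (Aqp3, Aqp7, Aqp8 and Aqp11), the efferent ductules 2 (Aqp1 and Aqp4), the corpus 1 (Aqp5) and the vas deferens 1 (Aqp2), and Aqp9 was called in none. Over the 34475 genes tested, the same rule called 28.2% in the testis, 3.20% in the vas deferens and 5.46% in the efferent ductules, and within the epididymis 2.48% for the initial segment, 3.42% for the caput, 2.70% for the corpus and 2.18% for the cauda, so that 4 of 9 in the testis stands beside a large background. The order of the regions picked at 3 months was then tested in the 21-month-old mice, by comparing for each gene the first with the second region. The difference passed the test for 6 of the 9 genes (Aqp1, Aqp2, Aqp4, Aqp7, Aqp8 and Aqp11), in comparisons where 13.8% to 40.5% of all genes were called in the same direction. The region with the highest mean CPM was the same at both ages for all 9, although for Aqp5 the 21-month corpus and efferent ductules were nearly equal and their order depended on the scaling.

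**Figure D2:**
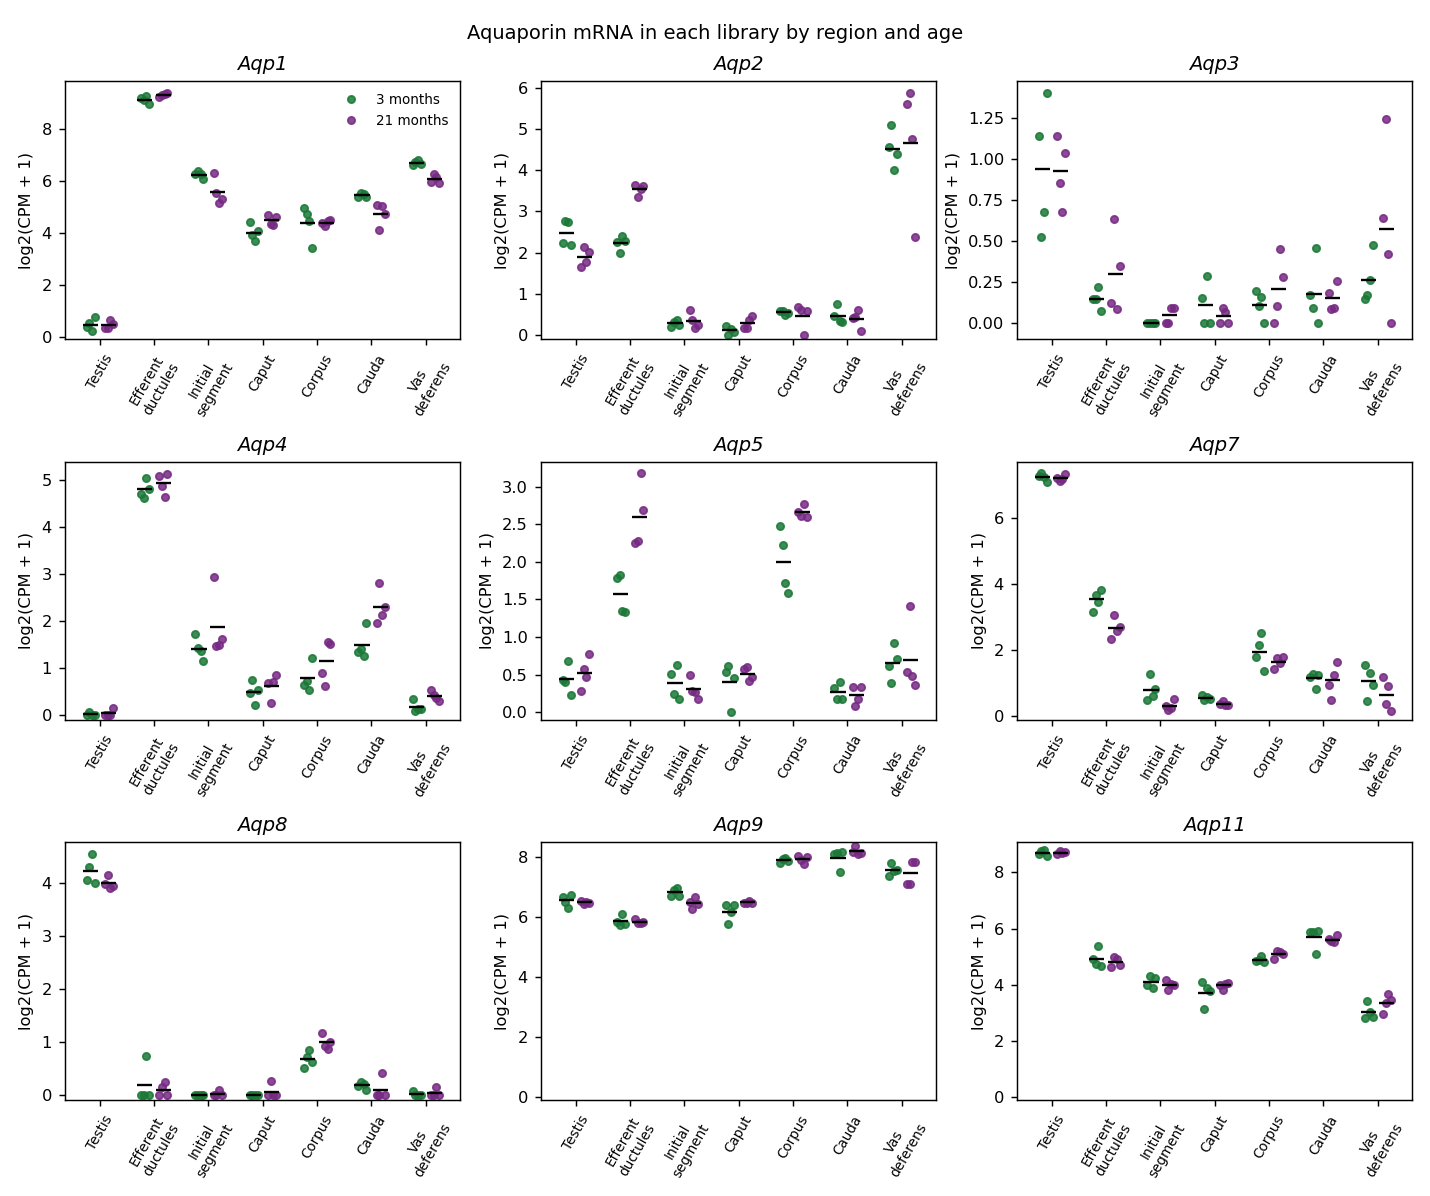
Levels of the 9 aquaporins as log2(CPM + 1) on the vertical axis, 1 panel per gene, with the 7 regions on the horizontal axis and each of the 4 libraries per region and age as a point. Aqp1 peaks in the efferent ductules, Aqp7, Aqp8 and Aqp11 in the testis and Aqp2 in the vas deferens, whereas Aqp9 is at 52.4 CPM or above in every library.

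Among the water channels, Aqp1, known for rapid water reabsorption in epithelia of the kidney and the efferent ductules and also present in small blood vessels and red blood cells, was highest in the efferent ductules. The 4 libraries there had 579, 548, 603 and 494 CPM at 3 months and 595, 629, 643 and 662 CPM at 21 months. Per length this was 212 ± 18.0 and 241 ± 10.7 RPKM, the highest level of any of the 9 genes in any region. The 3-month mean in the efferent ductules was 12.4 times that of the other 6 regions (log2 difference 4.84, SE 0.12, adjusted p = 1.22e-24). Here and below such ratios are of mean CPM. The log2 difference beside a ratio is the fitted one, against the average of the other 6 regions on the log scale. It is therefore not the log2 of the ratio. At 21 months the efferent ductules were above the vas deferens by 3.26 on the log2 scale (SE 0.20, adjusted p = 3.94e-14), a comparison in which 20.8% of all genes were called higher. The vas deferens was next at 3 months with 103 ± 6.35 CPM, followed by the initial segment (74.6 ± 6.65 CPM), the cauda (42.7 ± 2.45 CPM), the corpus (21.4 ± 8.49 CPM) and the caput (15.3 ± 3.49 CPM). Neighbours in this order differed (adjusted p from 1.67e-11 to 0.0183) except the corpus and the caput (adjusted p = 0.134). In the testis Aqp1 was close to the detection limit, with 28 counts over the 4 libraries at 3 months and 27 counts at 21 months. The highest group mean was 1717 times the lowest.

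Aqp2, the vasopressin-regulated channel of the renal collecting duct, had its highest level in the vas deferens. The 3-month libraries had 22.7, 33.0, 14.9 and 20.0 CPM, and the 21-month libraries 47.9, 57.4, 26.0 and 4.17 CPM. The 21-month libraries thus spread from below to above all 3-month libraries, and the lowest was the fourth library, which also had the lowest level of seminal vesicle markers. The 3-month mean was 15.6 times that of the other regions (log2 difference 5.21, SE 0.16, adjusted p = 2.88e-22). The testis came next at 3 months, with 4.71 ± 1.22 CPM, and the efferent ductules had 3.74 ± 0.528 CPM, a pair that did not differ beyond its spread (adjusted p = 0.244). In the epididymis Aqp2 stayed at or below 0.466 CPM on average in each region and age. At 21 months the vas deferens was above the testis by 3.80 on the log2 scale (SE 0.46, adjusted p = 1.09e-08), against 35.1% of all genes called higher in that comparison, and without the fourth vas deferens library, a setting chosen after seeing the data, the difference was 4.17. The efferent ductules had by then passed the testis, with 9.28 to 11.4 CPM, and the vas deferens was above them by 1.68 (log2, SE 0.41, adjusted p = 0.0012, with 20.7% of all genes called higher in the vas deferens). The 2 regions overlapped, since the fourth vas deferens library lay below every efferent ductule library.

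Aqp4, the main water channel of astrocytes in the brain, was a second gene of the efferent ductules, at a lower level than Aqp1 (4.34 ± 0.601 against 212 ± 18.0 RPKM at 3 months). Its libraries there had 25.1, 23.6, 32.2 and 27.3 CPM at 3 months and 32.8, 28.2, 23.9 and 34.2 CPM at 21 months, and the ages overlapped. The mean there at 3 months was 32.6 times that of the other regions (log2 difference 6.13, SE 0.17, adjusted p = 4.74e-23). The cauda followed with 1.86 ± 0.682 CPM and the initial segment with 1.69 ± 0.442 CPM, which did not differ beyond their spread (adjusted p = 0.922). At 21 months the efferent ductules stayed above the cauda by 2.98 on the log2 scale (SE 0.34, adjusted p = 1.52e-08), where 22.9% of all genes were called higher. The testis had 1 count of Aqp4 at 3 months and 2 counts at 21 months over 4 libraries.

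Aqp5, a channel of secretory glands, was low throughout and had a mean above 1 CPM in the corpus and the efferent ductules. In the corpus the libraries had 4.56, 3.67, 2.28 and 2.01 CPM at 3 months and 5.31, 5.12, 5.85 and 5.04 CPM at 21 months, so that every 21-month library was above every 3-month library, without passing the adjusted test (log2 change 0.75, adjusted p = 0.121). The corpus mean at 3 months was 4.95 times that of the other regions (log2 difference 2.76, SE 0.29, adjusted p = 2.54e-09). At 21 months the corpus (5.33 ± 0.363 CPM) and the efferent ductules (5.29 ± 1.99 CPM) were not distinguishable (log2 difference -0.01, SE 0.33, far from the adjusted threshold, with 21.2% of all genes called higher in the corpus), and the corpus call at 3 months was lost when the efferent ductules alone were the comparison (0.67, adjusted p = 0.156) or with library size as the only scaling. Aqp2 and Aqp5 are neighbours on chromosome 15, and their highest regions differed.

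Aqp8, which passes water and hydrogen peroxide and is known from the testis, liver and colon, had means below 1 CPM outside the testis. The testis libraries had 15.6, 18.7, 22.3 and 15.0 CPM at 3 months and 14.9, 16.8, 13.95 and 14.3 CPM at 21 months, and the ages overlapped (log2 change -0.26, adjusted p = 0.384). Its 3-month mean was 114 times that of the other regions (log2 difference 8.40, SE 0.32, adjusted p = 7.99e-18). The corpus was next, at 0.604 ± 0.158 CPM in the young and 0.995 ± 0.190 CPM in the old mice, with no overlap between the ages (log2 change 0.70, adjusted p = 0.340). In the 21-month libraries the testis exceeded the corpus by 3.75 (log2, SE 0.39, adjusted p = 6.64e-10), against 40.3% of all genes. In the 3-month efferent ductules all 12 counts of Aqp8 were in the third library, the one with raised haploid germ cell markers, and the initial segment and caput had 0 counts in 4 libraries each, where 3 counts is the limit that a count of 0 allows.

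Among the aquaglyceroporins, Aqp7, a glycerol channel of adipocytes that is also present in round and elongating spermatids, was led by the testis. The libraries there had 154, 164, 152 and 136 CPM at 3 months and 150.0, 141, 146 and 162 CPM at 21 months, or 53.5 ± 4.11 and 53.0 ± 3.11 RPKM. The 2 ages overlapped. The testis mean at 3 months was 49.1 times that of the other regions (log2 difference 6.42, SE 0.14, adjusted p = 2.20e-26). The efferent ductules were next with 10.8 ± 2.24 CPM, followed by the corpus (3.08 ± 1.34 CPM), and the other 4 regions had means of 0.472 to 1.24 CPM. In the older mice the testis exceeded the efferent ductules by 4.59 (log2, SE 0.27, adjusted p = 2.08e-15), against 40.0% of all genes.

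Aqp9, a broad channel for water, glycerol and urea and the best known aquaporin of the epididymal epithelium, was the one member called specific to no region. Its highest group mean was 5.16 times its lowest, the smallest such ratio among the 7 members detected in every group. The cauda had 274, 280.0, 179 and 284 CPM at 3 months and 284, 328, 271 and 276 CPM at 21 months, the 179 CPM belonging to the library with raised macrophage markers. The corpus had 222, 243, 251 and 229 CPM at 3 months, with no difference from the cauda (log2 difference -0.04, adjusted p = 0.928), and the vas deferens had 163, 219, 182 and 189 CPM, where the cauda was higher by 0.28 on the log2 scale without passing the adjusted test (adjusted p = 0.0532). The initial segment (112 ± 10.8 CPM) lay below the vas deferens (adjusted p = 4.62e-07) and above the testis (93.6 ± 12.1 CPM, adjusted p = 0.00723). The testis and caput (72.3 ± 14.2 CPM) did not differ beyond their spread (adjusted p = 0.127), and the efferent ductules were the lowest, with 57.2 ± 6.87 CPM (caput above efferent ductules, adjusted p = 0.00127). At 21 months the order of the first 3 regions was kept. Every cauda library was above every corpus library (214 to 260.2 CPM), but the difference did not pass the adjusted test (log2 difference 0.18, adjusted p = 0.332), in a comparison in which 13.8% of all genes were called higher in the cauda. The cauda was above the vas deferens (0.58, adjusted p = 0.000632). With library size as the only scaling the cauda passed against the corpus too (0.52, adjusted p = 0.00726).

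Aqp3, a glycerol channel of the basolateral membranes of epithelia and skin, had the lowest peak of the 9 genes per length, 0.531 ± 0.305 RPKM in the 3-month testis. The testis libraries had 1.20, 0.435, 0.600 and 1.65 CPM at 3 months and 1.20, 0.806, 0.600 and 1.05 CPM at 21 months. At 3 months its mean was 8.72 times that of the other regions (log2 difference 3.49, SE 0.46, adjusted p = 8.77e-08), but it rested on 68 counts. At 21 months the testis and the vas deferens (0.564 ± 0.579 CPM) were not distinguishable (log2 difference 0.50, SE 0.59, adjusted p = 0.452, with 40.0% of all genes called higher in the testis), while without the libraries of replicate 2 it passed (1.64, adjusted p = 0.0404). Aqp3 had 0 counts in the initial segment at 3 months, and its neighbour on chromosome 4, Aqp7, had 51 counts in the same libraries.

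Aqp11, a channel of the endoplasmic reticulum, was second to Aqp7 in the testis per length (43.8 ± 2.82 against 53.5 ± 4.11 RPKM at 3 months). The merged exons are 9418 bases for Aqp11 and 2828 bases for Aqp7, and in CPM Aqp11 was the higher (413 ± 26.5 against 151 ± 11.6). Its testis libraries had 402, 430.0, 438 and 380.1 CPM at 3 months and 399.6, 429, 409 and 419.8 CPM at 21 months. The ages overlapped. Its mean at 3 months was 16.1 times that of the other regions (log2 difference 4.26, SE 0.09, adjusted p = 5.28e-27). The cauda came next with 57.8, 57.2, 33.0 and 59.4 CPM at 3 months, the low value belonging to the library with raised macrophage markers, and the vas deferens was lowest with 7.27 ± 1.68 CPM. The testis exceeded the cauda by 3.05 at 21 months (log2, SE 0.12, adjusted p = 1.53e-19), against 40.5% of all genes. The summed level of 10 haploid germ cell markers was 446 to 828 CPM in the 3-month cauda and 11589 to 13718 CPM in the testis over both ages, and its part in the level of Aqp7, Aqp8 and Aqp11 in the cauda was not tested.

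The second question was whether the level of an aquaporin differed between 3 and 21 months within a region. Of the 63 pairs of member and region, 57 had enough counts to be tested, and 4 were called, with 2 higher and 2 lower at 21 months. Aqp2 and Aqp5 rose and Aqp7 fell in the efferent ductules, and Aqp1 fell in the vas deferens. In the efferent ductules, 4.00% of all genes tested were called higher and 2.98% lower, beside 2 and 1 of the 9 aquaporins. In the vas deferens 11.4% were called higher and 8.47% lower, beside 0 and 1 of the 8 aquaporins tested. No aquaporin was called in the testis (8 tested, with 0.353% of all genes higher and 0.210% lower), the initial segment (7 tested, 3.35% and 3.01%), the caput (7 tested, 3.09% and 5.05%), the corpus (9 tested, 1.5% and 1.47%) or the cauda (9 tested, 0.0700% and 0.0583%). Over the 57 pairs, 16 had an unadjusted p under 0.05, beside 20.0% of all tests of a gene in a region. In the initial segment, Aqp1 had 74.8, 82.1, 75.7 and 65.9 CPM at 3 months and 76.8, 45.4, 33.9 and 38.8 CPM at 21 months (log2 change -0.48, adjusted p = 0.146). Its first 21-month library lay among the 3-month libraries, and without it Aqp1 was called lower (-0.75, adjusted p = 0.000336). That library had motile cilia markers summing to 328 CPM, against 66.7 to 151 CPM in the other 3 and 107 to 189 CPM at 3 months, and their part in its Aqp1 was not tested.

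**Figure D3:**
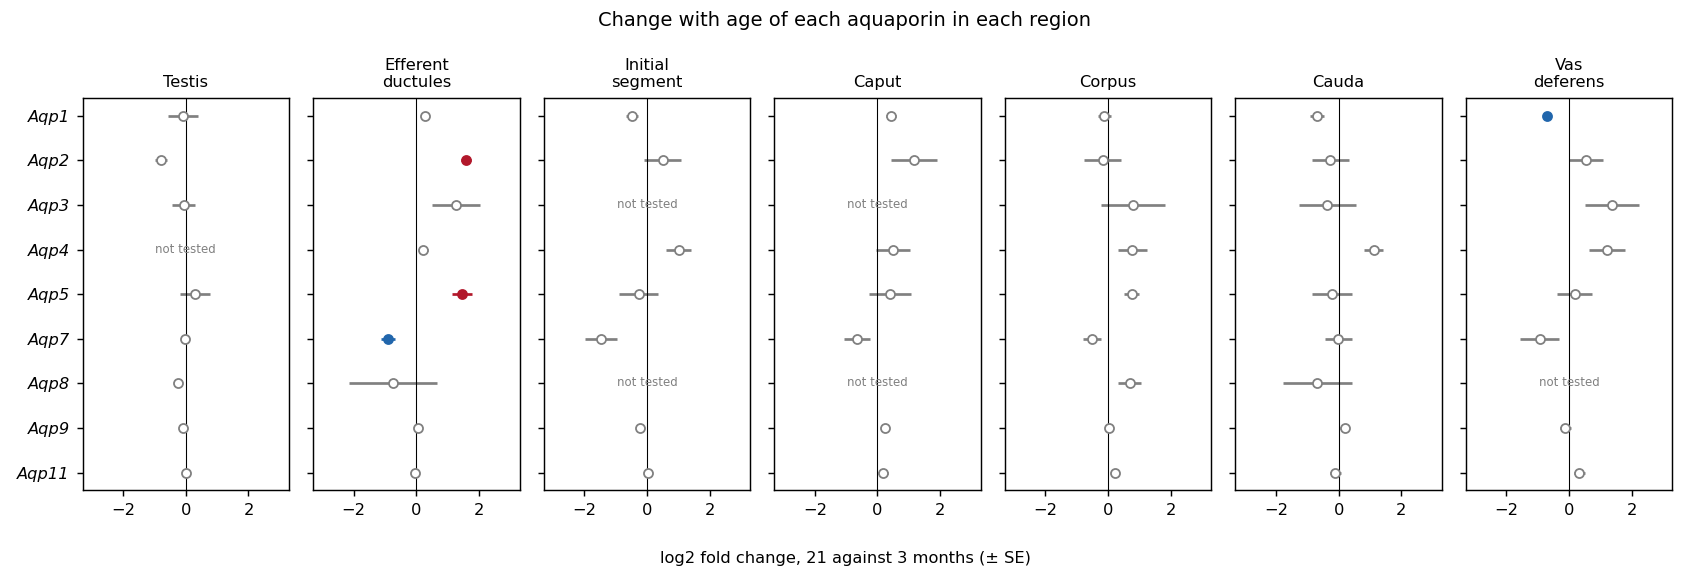
Change of each aquaporin between 3 and 21 months as the log2 fold change in each region, with bars of 1 SE, positive values being higher at 21 months. Filled red points mark the 2 increases (Aqp2 and Aqp5 in the efferent ductules) and filled blue points the 2 decreases (Aqp7 in the efferent ductules and Aqp1 in the vas deferens) with an adjusted p under 0.05, and open points the other pairs tested.

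Aqp2 rose most. The efferent ductules had 3.82, 3.01, 4.27 and 3.85 CPM at 3 months and 11.4, 9.28, 10.6 and 11.3 CPM at 21 months, a 3.01-fold increase (log2 change 1.59, SE 0.16, adjusted p = 0.00317). The lowest 21-month library, at 9.28 CPM, was above the highest 3-month library, at 4.27 CPM. Aqp5 had 2.44, 2.53, 1.53 and 1.52 CPM at 3 months and 3.77, 3.87, 8.04 and 5.46 CPM at 21 months in the same region, a 2.75-fold increase (log2 change 1.46, SE 0.31, adjusted p = 0.0230). The groups did not overlap, and the 21-month libraries were the more scattered. The call of Aqp5 was lost without the first, the third or the fourth 3-month library (log2 change 1.31 to 1.58, adjusted p 0.0587 to 0.0884), the third being the one with raised germ cell markers. In all it was lost in 5 of 18 alternative analyses, the one with the replicate number as a block among them. The call of Aqp2 held without any single library (adjusted p at most 0.0231).

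Aqp7 fell in the efferent ductules, from 8.06, 11.9, 10.1 and 13.2 CPM at 3 months to 4.12, 7.40, 5.03 and 5.55 CPM at 21 months. The level was 1.87 times lower at 21 months (log2 change -0.90, SE 0.21, adjusted p = 0.0337), and the groups did not overlap. Leaving out any single library of the region other than the second 21-month library ended this call, with log2 changes of -1.01 to -0.76 and adjusted p of 0.0524 to 0.115. Of 8 adipocyte markers, 3 also fell there (Cfd, Retn and Fabp4), and the summed level of the 8 was 741 to 1108 CPM at 3 months and 237 to 648 CPM at 21 months, with none of the 8 at 0. Haploid germ cell markers, 0 of 10 called, summed to 46.8 to 228 CPM and 89.6 to 148 CPM. The 228 CPM was in the third 3-month library, and the rest of that age had 46.8 to 51.3 CPM. The part of either cell type in the change of Aqp7 was not tested. For Aqp2 and Aqp5, the cell type lists with the most markers called higher in the efferent ductules were macrophage (6 of 9 rose, 389 to 421 CPM at 3 months and 549 to 772 CPM at 21 months), T cell (5 of 8 rose, 5.52 to 6.31 and 14.4 to 16.2 CPM) and red blood cell (4 of 7 rose, 17.3 to 29.9 and 38.7 to 115 CPM), none with a marker at 0. Smooth muscle (2 of 8 rose, 658 to 736 and 774 to 911 CPM) and motile cilia (2 of 10 rose, 2110 to 2390 and 2326 to 2510 CPM) had fewer, and the basal cell, clear and narrow cell and nerve sheath lists had 1 each. The part of these cell types in the increases was not tested. Gm42418 also moved with age in the efferent ductules, from 1.27% to 3.29% of the counts at 3 months to 4.93% to 22.2% at 21 months, and the TMM factors were 1.17 to 1.29 and 0.987 to 1.16. With Gm42418 taken out of the table, which was chosen after seeing the data, the changes were 1.59 for Aqp2 (adjusted p = 0.00312), 1.46 for Aqp5 (adjusted p = 0.0232) and -0.90 for Aqp7 (adjusted p = 0.0337). Whether the libraries differ in other ways along with Gm42418 was not tested.

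Aqp1, the main channel of the efferent ductules, had all 4 of its 21-month libraries there at 595 CPM or more, against 603 CPM or less at 3 months. The ages overlapped by the first 21-month library on this scale and were apart after scaling within the region, with a log2 change of 0.26 (SE 0.09) that did not pass the adjusted test (adjusted p = 0.116). DESeq2 called it (0.29, adjusted p = 0.00481), and with library size as the only scaling it turned to -0.08, where the median change of all genes was -0.38 in place of -0.04. In the vas deferens it fell. The libraries had 97.3, 104, 111 and 98.3 CPM at 3 months and 60.6, 76.4, 68.9 and 58.9 CPM at 21 months, which is 1.62 times lower (log2 change -0.69, SE 0.08, adjusted p = 0.000802), with no overlap. Without the fourth 21-month library, which stood apart in its seminal vesicle markers, the change was -0.65 (adjusted p = 0.000367). Of 10 endothelial markers, 5 fell in the vas deferens (Kdr, Cldn5, Vwf, Tie1 and Esam), and the summed level of the 10 was 262 to 312 CPM at 3 months and 189.6 to 261 CPM at 21 months, none at 0. Red blood cell markers, 0 of 7 called, summed to 82.9 to 145 CPM and 9.30 to 125 CPM. Smooth muscle markers rose in 4 of 8 cases, from 12743 to 13156 CPM to 13193 to 21496 CPM. All 8 T cell markers rose, from 6.08 to 9.94 CPM in sum to 21.9 to 66.3 CPM. Skeletal muscle (4 of 10, 220.0 to 301 and 136 to 284 CPM), motile cilia (4 of 10, 23.1 to 28.3 and 32.8 to 50.7 CPM) and macrophage markers (3 of 9, 264 to 380.4 and 281 to 436 CPM) also had members that rose. The part of these cell types in the fall of Aqp1 was not tested.

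Aqp2 in the vas deferens, where its level is highest, had a log2 change of 0.53 with an SE of 0.55 (adjusted p = 0.537). The 3 libraries with 26.0 to 57.4 CPM at 21 months were those in which seminal vesicle markers summed to 489 to 1930 CPM, and the library with 4.17 CPM had 22.5 CPM of them. At 3 months these markers summed to 3.13 to 4.86 CPM, with 2 of 7 at 0, while Aqp2 was at 14.9 to 33.0 CPM. All 5 seminal vesicle markers that could be tested rose with age, and their part in the spread of Aqp2 was not tested.

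**Figure D4:**
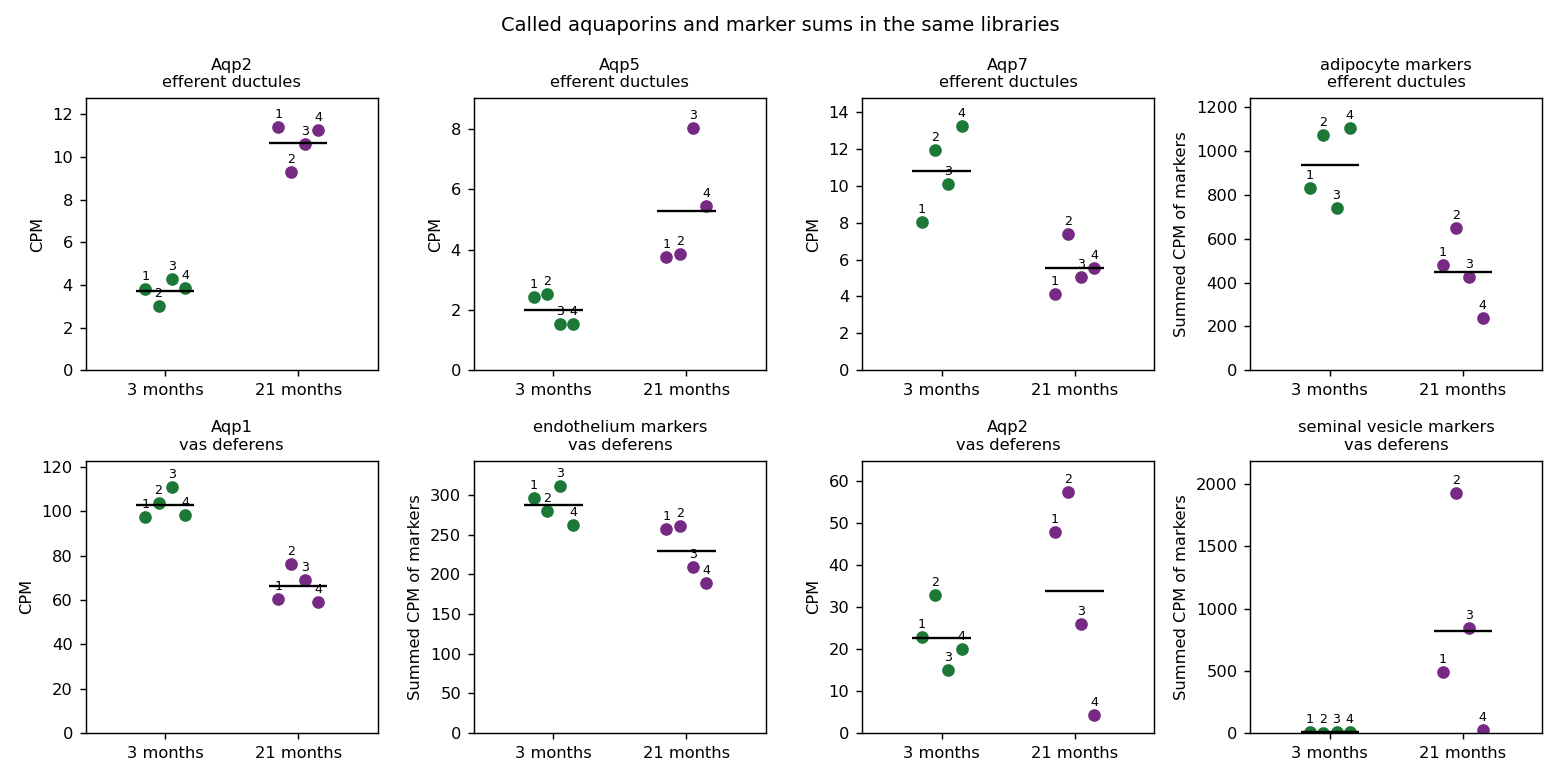
Levels in CPM per library at 3 and 21 months of Aqp2, Aqp5, Aqp7 and the summed adipocyte markers in the efferent ductules, and of Aqp1, Aqp2 and the summed endothelial and seminal vesicle markers in the vas deferens, with the replicate number beside each point and the mean as a line. The 21-month libraries of Aqp7 (4.12 to 7.40 CPM) and Aqp1 (58.9 to 76.4 CPM) lie below all 3-month libraries, and the fourth 21-month vas deferens library is lowest for both Aqp2 and the seminal vesicle markers.

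With levels scaled within the region, the ages did not overlap in 12 of the 57 pairs, the 4 called pairs and 8 others, Aqp1 in the efferent ductules among them. The numbers were 1 of 8 in the testis (background 6.31% of all genes), 4 of 9 in the efferent ductules (17.8%), 0 of 7 in the initial segment (12.4%), 1 of 8 in the vas deferens (25.0%), 2 of 7 in the caput (16.9%) and 2 of 9 each in the corpus (10.2%) and the cauda (8.46%). The testis pair was Aqp2, at 3.72, 5.82, 5.73 and 3.59 CPM at 3 months and 2.13, 3.39, 2.40 and 3.03 CPM at 21 months (log2 change -0.79, SE 0.19, adjusted p = 0.0590, and 0.0279 with DESeq2). In the cauda they were Aqp1, at 40.4 to 45.3 CPM at 3 months and 16.0 to 32.4 CPM at 21 months (log2 change -0.69, SE 0.22, adjusted p = 0.282), and Aqp4, with 1.38 to 2.87 CPM and 2.88 to 5.99 CPM (log2 change 1.13, SE 0.30, adjusted p = 0.195). In the caput they were Aqp7 (log2 change -0.66, adjusted p = 0.371), on 29 counts at 3 months and 22 counts at 21 months, and Aqp9, with 52.9 to 83.5 CPM and 87.4 to 90.6 CPM (log2 change 0.24, adjusted p = 0.159). The lowest of these Aqp9 values came from the caput library in which Gm42418 took 49.7% of the counts. Some pairs passed when a given 3-month library was left out. Aqp1 (0.56, adjusted p = 0.0166) and Aqp9 (0.28, adjusted p = 0.0422) were called higher in the caput without its first library, and Aqp5 in the corpus without its first library (1.01, adjusted p = 0.0278). Aqp2 in the testis was called lower without the first (-0.89, adjusted p = 0.0341) or the fourth (-0.90, adjusted p = 0.0278). DESeq2 called Aqp4 higher in the cauda (1.14, adjusted p = 0.0364). A single fit of all libraries called Aqp4 higher (1.13, adjusted p = 0.0456) and Aqp1 lower (-0.69, adjusted p = 0.0399) in the cauda, and without a filter on low counts Aqp4 was called higher in the initial segment (1.02, adjusted p = 0.0482). The first 21-month library there had 6.69 CPM of Aqp4, against 1.76 to 2.06 CPM in the rest of that age. When single libraries were left out, the log2 change of Aqp4 in the initial segment fell as low as 0.33.

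Whether the change with age differed between regions was tested over all 56 libraries with the 6 terms of age by region. Aqp1 (F = 4.89, adjusted p = 0.00624) and Aqp2 (F = 3.71, adjusted p = 0.0257) passed, and the other 7 members did not, with adjusted p from 0.145 for Aqp7 to 0.560 for Aqp8. Of all 36977 genes tested, 20.2% passed, so that 2 of 9 is close to the background. At most 1 of the 2 calls held in any fit made without the 14 libraries of a given replicate number (adjusted p up to 0.0718 for Aqp1 and 0.164 for Aqp2). Over 13 alternatives Aqp1 lost its call in 3 and Aqp2 in 5, and without the testis the adjusted p of Aqp2 was 0.247. Within regions, the log2 changes of Aqp1 ran from -0.69 in the vas deferens and the cauda to 0.43 in the caput, and for Aqp2 the change was 1.59 in the efferent ductules and -0.79 in the testis.

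The genes around aquaporins were examined in lists of ion and fluid transport, glycerol handling, aquaporin trafficking, osmotic response and hormone receptors. In the efferent ductules, 3 of 20 tested fluid transport genes rose and 2 fell, where 4.00% of all genes rose and 2.98% fell, with a median log2 change of 0.20 against -0.04 over all genes. Fxyd2, a modulator of the sodium pump, rose from 35.7 ± 10.2 to 91.9 ± 22.3 CPM (log2 change 1.36, adjusted p = 0.0108), and Slc14a1, a urea transporter, rose from 2.91 to 6.38 CPM on average (1.13, adjusted p = 0.0169). Cftr, the chloride and bicarbonate channel, fell from 77.8 ± 5.08 to 46.1 ± 5.26 CPM (-0.76, adjusted p = 0.00717), and Slc26a3, a chloride and bicarbonate exchanger, had a log2 change of -0.60 (adjusted p = 0.0381). Of 10 glycerol handling genes 1 fell, glycerol kinase Gk (-0.69, adjusted p = 0.00979). Of 6 osmotic response genes 2 fell, namely the tonicity-responsive factor Nfat5 (-0.69, adjusted p = 0.00707) and the inositol transporter Slc5a3 (-0.51, adjusted p = 0.0174). Of 9 hormone receptors 1 rose, the mineralocorticoid receptor Nr3c2 (0.48, adjusted p = 0.0282), and none of 18 trafficking genes was called. The part of the macrophage, T cell, red blood cell and adipocyte markers that moved in the same libraries was not tested for these lists either.

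In the vas deferens, 4 of 22 fluid transport genes rose, beside 11.4% of all genes, with a median log2 change of 0.25 against 0.02 over all genes. The largest increases were those of the sodium-proton exchanger Slc9a3 (log2 change 2.21, adjusted p = 0.0101) and the carbonic anhydrase Car2 (1.68, adjusted p = 0.00632), both at a few CPM. In the same libraries seminal vesicle, T cell, motile cilia, smooth muscle, skeletal muscle and macrophage markers had members that rose, and endothelial markers had members that fell. Their part was not tested. Of 19 trafficking genes 4 rose, among them Ezr, which links membranes to actin (0.45, adjusted p = 0.0102), and the vesicle motor Myo5b (0.40, adjusted p = 0.00972), and 3 fell, beside 8.47% of all genes, among them the protein kinase A subunit Prkar2b (-0.83, adjusted p = 0.00935) and the fusion protein Snap23 (-0.38, adjusted p = 0.00747). Of 10 glycerol handling genes 1 rose, the triglyceride lipase Pnpla2 (0.48, adjusted p = 0.00206), and 0 of 6 osmotic response genes and 0 of 9 hormone receptors were called. In the caput, where 3.09% of all genes rose and 5.05% fell, 2 of 6 osmotic response genes rose, Slc5a3 (0.50, adjusted p = 0.0119) and the taurine transporter Slc6a6 (0.54, adjusted p = 0.0466), where Slc5a3 had fallen in the efferent ductules. Glycerol kinase Gk (0.58, adjusted p = 0.0211) and the estrogen receptor Gper1 (0.97, adjusted p = 0.0476) also rose in the caput, and the urea transporter Slc14a2 (-0.68, adjusted p = 0.00982) and Dag1 of the trafficking list (-0.42, adjusted p = 0.0217) fell. Of 8 smooth muscle markers 7 also fell in the caput, with sums of 1106 to 1457 CPM at 3 months and 794 to 938 CPM at 21 months. The adipocyte, haploid germ cell and Sertoli cell lists had 2 each that fell. T cell (3 of 8, 3.15 to 5.38 and 9.45 to 14.8 CPM) and macrophage markers (3 of 9, 154 to 165 and 202 to 242 CPM) had members that rose. The part of these cell types in the changes in the caput was not tested. The corpus, where 1.5% of all genes rose and 1.47% fell, had 3 calls, with Car2 higher (0.39, adjusted p = 0.0274) and Slc26a3 (-0.74, adjusted p = 0.00530) and Dmd of the trafficking list (-0.47, adjusted p = 0.0178) lower. Red blood cell markers rose there in 4 of 7 cases (sums of 65.8 to 86.2 CPM and 102 to 443 CPM) and 2 of 8 adipocyte markers fell (79.3 to 294 CPM and 72.9 to 121 CPM), and their part was not tested. The initial segment (3.35% and 3.01% of all genes) had 2, with the carbonic anhydrase Car4 higher (1.46, adjusted p = 0.0326) and the glycerol kinase Gk2 lower (-2.38, adjusted p = 0.00841). Of 10 haploid germ cell markers 8 fell there (median log2 change -2.05), with sums of 40.4 to 133 CPM and 13.04 to 31.6 CPM, and their part in the fall of Gk2 was not tested. T cell (5 of 8, 5.03 to 6.52 and 9.47 to 12.6 CPM) and macrophage markers (4 of 9, 250 to 272 and 286 to 361 CPM) had members that rose in the initial segment. Their part in the rise of Car4 was not tested. In the testis and the cauda, 0 genes of the 5 lists were called.

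Finally, the genes whose regional pattern was most like that of each aquaporin were listed by Pearson's correlation of log2(CPM + 1) over the 14 means of region and age. This is a description over means that share the same libraries. For Aqp1 they were Pgghg (r = 0.993), Ephb4 (0.986) and Ptpn18 (0.984), and for Aqp4 Rdh16 (0.957), Ect2l (0.955) and Notum (0.952). For Aqp2 they were Cdkl1 (0.957), Pcdh11x (0.951) and Cnnm1 (0.947), and for Aqp5 Aadat (0.965), G6pc (0.934) and Tert (0.924). For the members highest in the testis they were Upk3bl (0.999), Trap1a (0.998) and Arl14epl (0.997) for Aqp8, Slc1a2 (0.994), 4921536K21Rik (0.988) and Rps6ka6 (0.988) for Aqp7, 1700001O22Rik (0.990), Gpx4 (0.990) and Deup1 (0.988) for Aqp11, and Fbxo2 (0.982), Egr3 (0.977) and Stk10 (0.976) for Aqp3. For Aqp9 they were Nbea (0.945), Slc26a2 (0.945) and Rab3c (0.941).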

How the data were processed

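RNA-seq was performed on 56 libraries from 7 regions of the tract at 2 ages, with 4 libraries per group. The authors made stranded total RNA libraries, aligned paired-end reads to GRCm38 (mm10) with HISAT2, and deposited whole-number counts per Ensembl gene without normalization. Cutadapt and HTSeq are named in the submitters' processing notes, and versions and the strand setting are not given in the sources used here. The labels name TRIzol and the methods an RNeasy kit for the RNA. Samples were grouped by the region and age in their labels, and no library was left out.

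Symbols, positions and exon lengths came from GENCODE M21, which named 53274 of 53379 genes, and promoter windows from RefSeq, in which 8 of the 9 members were found. Genes whose counts summed to 10 or more entered edgeR 4.0.16 (R 4.3.3) with TMM scaling, and its quasi-likelihood test was adjusted by Benjamini-Hochberg over all genes tested and called under 0.05. Age was fitted within each region (8 libraries), regions within each age (28 libraries) and age by region over all 56. Intervals from counts cover counting error only. On simulated counts for the efferent ductules, the age test was checked with known 2-fold and 4-fold changes.

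The members, gene lists and tests were chosen with earlier results of these data known. The named genes are all members, up to 2 genes per direction of each list with the largest change among those called in a region described, and the 3 protein-coding genes of highest correlation per member. The results of 1 gene each of the fluid transport and hormone receptor lists are not reported here. Alternatives were DESeq2 1.42.0, other scalings and filters, a single fit of all libraries, the replicate number as a block, a looser threshold, and leaving out each library. No libraries were duplicates, the lowest chi-square per degree of freedom between replicates being 3.03. Nothing in the labels or methods ties replicate numbers to mice, and the p-values measure the spread between these libraries.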

Additional observations from a re-analysis of the deposited data

Results flagged for a closer look

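Among groups of 4 libraries, those with at least 40 counts of a member were examined for a library far from the other 3, which chance gives in about 1 in 20 groups, and 4 of 78 groups had one. Aqp4 in the initial segment at 21 months was 6.69 CPM in the first library against 1.76, 1.80 and 2.06 CPM, and the same library had the highest summed motile cilia markers, 328 CPM against 66.7 to 151 CPM in the others, and the highest Aqp1, 76.8 CPM against 33.9 to 45.4 CPM. Aqp5 in the vas deferens at 21 months was 1.66 CPM in the second library against 0.285, 0.394 and 0.447 CPM, and that library also had the highest summed seminal vesicle markers, 1930 CPM. In the third 3-month cauda library Aqp9 was 179 CPM against 274, 280.0 and 284 CPM, and Aqp11 was 33.0 CPM against 57.2, 57.8 and 59.4 CPM, while macrophage markers summed to 3784 CPM against 484 to 515 CPM. The part of these cell types in the deviations was not tested.

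The change with age differed among the regions for Aqp1 (adjusted p = 0.00624) and Aqp2 (adjusted p = 0.0257) by edgeR's test of age by region over 56 libraries. Of all 36977 genes tested 20.2% passed, so that 2 of 9 is close to the background. At most 1 of the 2 calls held in any fit without the libraries of a replicate number. Aqp1 was lower at 21 months in each of the 4 libraries of the vas deferens than in any 3-month library, and Aqp2 was higher in 4 of 4 libraries of the efferent ductules.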

How the results depend on the processing

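Counting error is small for the peaks of most members. Aqp3 rests on few counts, as do Aqp2 in the epididymis, Aqp7 in the initial segment and caput, and Aqp4, Aqp5 and Aqp8 outside their leading regions. With 4 libraries a group, small changes can be missed. The 6 leading-region calls stayed between 6 and 7 over 13 alternatives and the 8 region-specific calls between 7 and 8, and the calls of Aqp2 in the efferent ductules and Aqp1 in the vas deferens held in 18 of 18 alternatives each. The 2 increases with age became 4 with DESeq2, 4 without a filter on low counts and 5 at an unadjusted p under 0.05 with a 1.5-fold change, and 1 to 4 when single libraries were left out. The 2 decreases became 4 without the filter, 5 under the looser threshold, 1 without the 4 libraries that stand apart (chosen after seeing the data), and 1 to 3 when single libraries were left out. The 2 members whose age effect differed among regions became 1 under library size only, 1 without the testis libraries, and 0 to 1 when the libraries of a replicate number were left out, where fewer samples entered. Replicate numbers were not shown to pair libraries, since only 1 of 21 pairs of regions at 3 months and 0 at 21 months had every same-number correlation of deviations above 0.1. With the replicate number as a block, 1 increase and 3 decreases were called, Aqp5 in the efferent ductules losing and Aqp2 in the testis gaining the call, and no call of the other comparisons changed. Scaling by library size only turned the change of Aqp1 in the efferent ductules to -0.079, where the median change of all genes moved from -0.04 to -0.38. The difference of Aqp5 between corpus and efferent ductules at 21 months turned to 0.0069 in a single fit of 56 libraries, ran from -0.12 to 0.25 without one replicate number, and was -0.42 with library size only. Where not given above, the cause was not tested.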

Other observations

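Of the 3 further aquaporin genes in the table, Aqp6 was highest in the caput epididymidis. Its libraries there had 16.7, 4.95, 5.04 and 11.1 CPM at 3 months and 21.8, 17.1, 14.8 and 26.9 CPM at 21 months, with overlapping ages (log2 change 1.03, adjusted p = 0.0540 by edgeR). Its 3-month mean in the caput was 37.4 times that of the other regions. Aqp6 follows Aqp5 on chromosome 15 with 6.6 kb between them, so that Aqp2, Aqp5 and Aqp6, neighbours in the genome, had their highest levels in the vas deferens, the corpus and the caput. Aqp12 had counts mainly in the testis, 0.393 ± 0.127 CPM at 3 months and 0.300 ± 0.160 CPM at 21 months. Mip had at most 3 counts in any group of 4 libraries.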
